A study of Mus musculus with 10 samples.

Results

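Sodium-potassium pump and plasma membrane calcium pump genes were followed in single leptin receptor reporter neurons of the mouse nucleus of the solitary tract. The 7 genes were taken by symbol: Atp1b1, Atp1b2 and Atp1b3 encode beta subunits of the sodium-potassium pump, and Atp2b1, Atp2b2, Atp2b3 and Atp2b4 encode calcium pumps of the plasma membrane. They are 7 of 25006 genes listed for each neuron, and all 7 averaged 1 CPM or more (CPM, a gene's counts per 1000000 counts of its library). The catalytic alpha subunits of the sodium-potassium pump were not among them.

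The type 2 group held 5 neurons (6-2, 10-1, 10-3, 9-2 and 9-4) and the type 1 group 5 neurons (1-1, 1-2, 4-3, 8-2 and 9-1), grouped by a firing property that the labels name but do not describe. All came from brainstem slices of 3-month-old C57BL/6 mice carrying LepRb-Cre and Halo-eYFP, in which the yellow fluorescent protein marks leptin receptor neurons, and no treatment is named. Cytoplasm and nucleus of each neuron were drawn into a pipette and made into 1 library. No animal or slice is named, so each firing type counted as 1 sample and no test between types was made. The spreads below are between cells, and what separates the types cannot be told apart from what separates animals.

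The sodium-potassium pump moves sodium out of the cell and potassium in, and restores the gradients that action potentials and synaptic currents run down. Its alpha subunit carries out transport, and its beta subunit is needed for the alpha subunit to fold and reach the membrane. Plasma membrane calcium pumps expel calcium from the cytoplasm, are activated by calmodulin, and work in complexes with neuroplastin or basigin. In neurons they help return calcium to its resting level after firing.

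Summed gene counts ranged from 9796799 in 4-3 to 41844825 in 8-2, and 1 type 2 library (6-2) and 3 type 1 libraries (1-1, 1-2 and 4-3) held fewer than 20000000. Of 8 neuronal markers, 6 to 8 were detected in type 2 neurons and 7 to 8 in type 1 neurons, where detected means 10 CPM or more and at least 3 counts. Gcg, the proglucagon gene, ranged over 3556 to 17679.8 CPM in type 2 neurons, against 0 to 14.1 CPM in type 1 neurons. Gal, the galanin gene, ranged over 0 to 149 CPM in type 2 neurons, against 1859 to 5124 CPM in type 1 neurons. Of 14 microglial markers, 13, 7 and 13 were detected in 6-2, 9-2 and 9-4, and 0 to 5 in the other 7 neurons. Summed microglial CPM was 4.25 to 1846 in type 2 and 0.0668 to 807 in type 1. Of 13 astrocyte markers, 1 to 5 were detected in type 2 neurons and 1 to 3 in type 1 neurons, with sums of 1046 to 1775 and 149.8 to 673 CPM that came mostly from Aldoc. Of 13 oligodendrocyte lineage markers, 1 to 3 were detected in type 2 and 0 to 3 in type 1 (sums of 39.2 to 220.2 and 2.07 to 1047 CPM), with Olig2, Sox10 and Opalin at 0. Of 11 vascular and blood markers, 0 to 1 were detected in either type (sums of 0.608 to 10.7 and 2.87 to 27.6 CPM), with Cdh5, Rgs5, Pdgfrb and Vtn at 0.

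The upstream sequences of the 3 genes on which the results turn most are shown: the steadiest member, Atp1b1, and the pair with the largest differences between types, Atp1b3 and Atp2b1. Each run is the 250 bases before the outermost transcription start in RefSeq (GRCm38.p6), read 5′ to 3′ on the gene's own strand. In the gene coordinates given below (GENCODE M21), Atp2b1 starts at 98914406, so most of its window lies inside the annotated gene. By those coordinates its motif, G or C and CpG values mostly describe sequence within the gene. Atp1b3 ends at 96364442 on the minus strand, so its window overlaps the gene by a few bases. Capitals mark matches on either strand to the GC box GGGCGG or to CCAAT.

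Atp1b1 (chr1:164458356-164458605, minus strand): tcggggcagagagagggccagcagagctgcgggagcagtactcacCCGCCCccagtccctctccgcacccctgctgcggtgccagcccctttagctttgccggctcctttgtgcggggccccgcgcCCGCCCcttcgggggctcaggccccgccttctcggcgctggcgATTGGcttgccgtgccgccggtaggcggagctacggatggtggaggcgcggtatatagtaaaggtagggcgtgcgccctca

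Atp1b3 (chr9:96364432-96364681, minus strand): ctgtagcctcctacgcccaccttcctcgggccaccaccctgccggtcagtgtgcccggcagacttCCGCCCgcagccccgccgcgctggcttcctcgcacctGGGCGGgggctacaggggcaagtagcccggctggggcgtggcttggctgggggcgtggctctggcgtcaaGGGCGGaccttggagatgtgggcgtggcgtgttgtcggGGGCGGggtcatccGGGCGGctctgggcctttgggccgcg

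Atp2b1 (chr10:98914392-98914641, plus strand): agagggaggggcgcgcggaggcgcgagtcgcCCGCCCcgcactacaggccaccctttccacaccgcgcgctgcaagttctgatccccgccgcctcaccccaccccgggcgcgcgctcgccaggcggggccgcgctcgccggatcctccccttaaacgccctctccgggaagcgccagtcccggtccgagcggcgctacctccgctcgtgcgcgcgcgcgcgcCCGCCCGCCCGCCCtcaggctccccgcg

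GGGCGG matched 2 times in the Atp1b1 window, 5 times in that of Atp1b3 and 4 times in that of Atp2b1, counting overlapping matches. CCAAT matched 1 time, in Atp1b1, and TATAAA in none of the 3. Over 32851 RefSeq windows of the same length, 32.7% held GGGCGG, 33.8% CCAAT and 12.4% TATAAA on either strand. The windows of Atp1b1, Atp1b3 and Atp2b1 were 70.4%, 73.6% and 78.4% G or C with 24, 24 and 43 CpG pairs, against medians of 52.4% and 6 over all windows. RefSeq windows were matched for 5 of the 7 genes, some with more than 1 window. A second Atp1b3 window, not shown, held 0 matches to GGGCGG, and a second Atp2b1 window held 3. No readout of these neurons tells which start was used.

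Atp1b1 was the leading beta gene in every neuron of both types and one of the steadiest genes in the data. Atp1b1 encodes the widespread beta subunit of neurons and epithelia (ENSMUSG00000026576, GRCm38 chromosome 1, 164437109 to 164458355, minus strand). In the order in which the neurons are named above, it was at 729.7, 581, 1147, 958 and 1016 CPM in type 2, against 1357, 869.7, 671, 506 and 743 CPM in type 1. The highest and the lowest neuron, 1-1 and 8-2, were both type 1, and the ranges overlapped. Type 2 neurons averaged 886 ± 228 CPM and type 1 neurons 829.2 ± 323 CPM (SD over 5 neurons, as below), and the difference, type 2 minus type 1 in mean log2(CPM + 1), was 0.13. With the reads of all 5 neurons pooled, type 2 was at 892 CPM (888 to 897, an exact 95% Poisson interval) and type 1 at 746 CPM (741 to 751). Such intervals count each read as a separate event and leave out the spread between neurons. Reads without molecular identifiers need not be separate molecules, so the intervals may be too narrow even for counting error. Its SD over the 10 neurons was 0.44 on the log2 scale, and of the 9212 genes averaging 10 CPM or more only 1.14% had a smaller one, although SDs were in general smaller among highly expressed genes. Its highest level was 2.68 times its lowest. Atp1b1 shares 575 of its 3081 exon bases with Nme7 on the opposite strand. Whether counting used strand is not given in the sources used here, but Nme7 held 7893 counts in all against 217255 for Atp1b1.

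**Figure D1:**
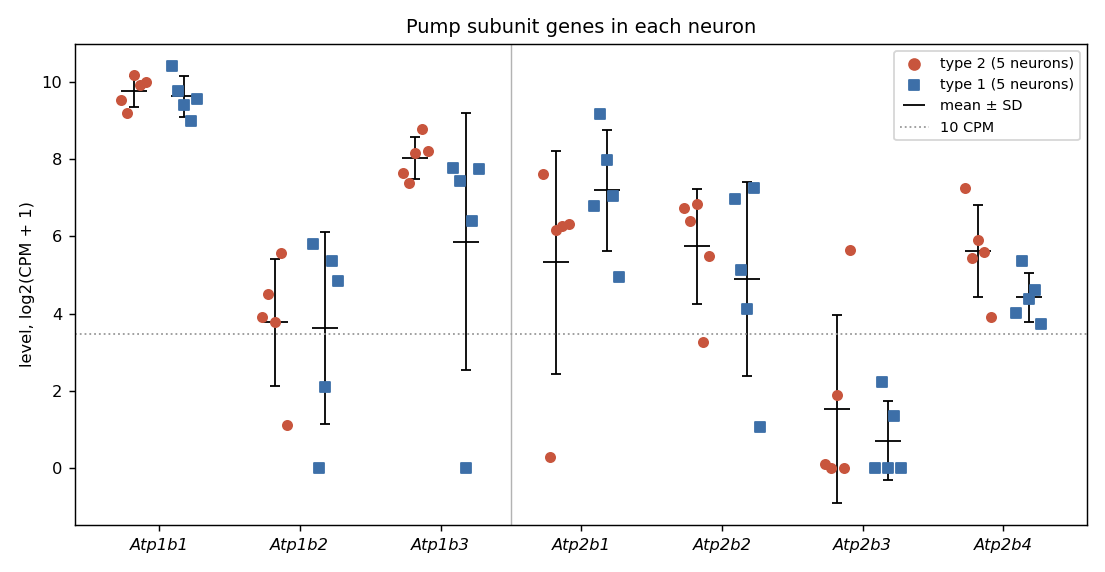
Level of each gene in each neuron, as log2(CPM + 1), with type 2 neurons as circles on the left of each pair and type 1 neurons as squares on the right; bars give the mean ± SD of 5 neurons and the dotted line marks 10 CPM. Atp1b1 forms a narrow band in both types, while Atp1b3 has a type 1 neuron at 0 and Atp2b1 a type 2 neuron at 0.216 CPM.

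Atp1b3 had the largest difference among the 7 genes, and most of that size came from a type 1 neuron with no counts. Atp1b3 encodes a further beta subunit (ENSMUSG00000032412, chromosome 9, 96332655 to 96364442, minus strand). It was at 197, 164, 284, 440.2 and 291 CPM in type 2, against 217, 171, 0, 82.4 and 212 CPM in type 1. The 0 lay in 4-3, the smallest library, where 0 counts allow up to 0.306 CPM by sequencing depth alone. Of the type 2 neurons, 3 exceeded every type 1 neuron, and 10-1 and 6-2 lay within the type 1 range. Averages were 275 ± 107 CPM in type 2, against 136 ± 93.4 CPM in type 1, a difference of 2.16. Without 4-3 the difference was 0.70, below 2-fold, and from medians of the neurons it was 0.73. Within libraries over 20000000 counts the difference was 1.07 (4 type 2 and 2 type 1 neurons), and within those under it 2.56 (1 and 3 neurons). Without 6-2, 9-2 and 9-4, the type 2 neurons with the most microglial transcripts, it was 1.90, and without 1-2 as well, the type 1 neuron with the most, it was 2.29.

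Atp1b2 was a minor beta gene whose direction depended on how neurons were averaged. Atp1b2 encodes a beta subunit first known as an adhesion molecule on glia (ENSMUSG00000041329, chromosome 11, 69599736 to 69605942, minus strand). It was at 14.02, 21.9, 12.9, 46.2 and 1.18 CPM in type 2, against 55.02, 0, 3.27, 40.2 and 27.4 CPM in type 1. Detection was seen in 4 of 5 neurons of type 2 (80%, with an exact 95% binomial interval of 28.4 to 99.5%) and in 3 of 5 of type 1 (60%, 14.7 to 94.7%). These intervals treat the 5 neurons as independent draws. With no animal named, they do not give the uncertainty of the detection rate in a firing type. The log2 difference was 0.16, but the summed level was 19.3 CPM in type 2 (18.7 to 20.1) and 30.4 CPM in type 1 (29.4 to 31.4), in the opposite direction. The difference was -1.35 within libraries over 20000000 counts, 1.28 within those under it, and -1.49 among the neurons numbered 9. Of the 13 astrocyte markers, 6 were detected in some neuron, and Aldoc was detected in all 10. Sox9 reached 102 CPM in 6-2 and 52.0 CPM in 9-4, Gfap 56.1 CPM in 6-2 and 15.6 CPM in 9-1, and Aldh1l1 51.04 CPM in 9-4. S100b was detected in 6-2, 1-2, 4-3 and 9-1, at up to 73.9 CPM in 4-3, and Slc1a2 reached 20.7 CPM in 6-2 and 30.6 CPM in 4-3. Slc1a3 had 0 counts in all 10 neurons, and Aqp4 was at most 0.445 CPM. The part of astrocyte RNA in the Atp1b2 levels was not tested.

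To add genes within a family, CPM was divided by the summed length of the gene's annotated exons in kilobases. Atp1b1 made up 61.4 to 75.3% of beta transcripts so measured in type 2 and 71.6 to 99.6% in type 1. Atp1b3 made up 24.1 to 36.4% in type 2 and 0 to 26.4% in type 1, and Atp1b2 at most 2.23% in type 2 and 4.72% in type 1. Mean shares of Atp1b3 were 27.8 ± 4.9% in type 2 and 16.0 ± 9.78% in type 1, a difference of 11.9 percentage points, and of 7.88 points without 4-3. The family total was 408 ± 109 CPM per kb in type 2 and 332 ± 136 CPM per kb in type 1, a log2 difference of 0.34.

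**Figure D2:**
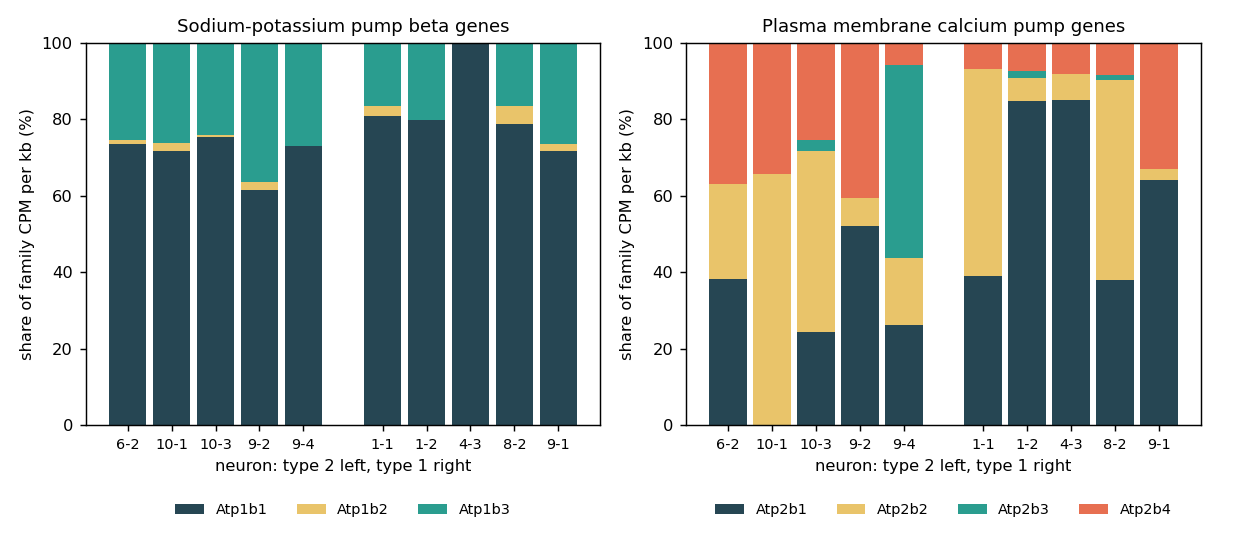
Share of each gene in its family, in percent of the family's CPM per kb of exon, for each neuron (type 2 on the left of each panel, type 1 on the right; left panel, beta genes; right panel, calcium pump genes). Atp1b1 leads in all 10 neurons, while the leading calcium pump gene changes from neuron to neuron.

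Calcium pump genes varied more from neuron to neuron than Atp1b1 did, as did the beta genes Atp1b2 and Atp1b3. Atp2b1, the widespread calcium pump gene of the plasma membrane, was the member with the largest difference towards type 1 (ENSMUSG00000019943, chromosome 10, 98914406 to 99026143, plus strand). It was at 193, 0.216, 70.4, 75.6 and 79.3 CPM in type 2, against 108, 574, 252, 132 and 29.8 CPM in type 1. Type 2 neuron 10-1 was nearly empty of it in a library of 41608996 counts, type 1 neuron 1-2 was the highest, and the other 8 neurons overlapped. Means were 83.7 ± 69.3 CPM in type 2, against 219 ± 214 CPM in type 1, a difference of -1.86. Without 10-1 the difference was -0.60, below 2-fold. Among the 3 neurons numbered 9, the one leading number that both types share, it was 1.35, in the opposite direction, and 9-1 had the lowest type 1 level. It was -1.24 within libraries over 20000000 counts, -0.37 within those under it, and -3.96 without 6-2, 9-2 and 9-4. The type 1 neuron with the most microglial transcripts, 1-2, also had the highest Atp2b1 level, and without it and those 3 the difference was -3.47. The part of microglial RNA in it was not tested.

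Atp2b4 was higher on average in type 2, and of the 3 members past 2-fold its difference moved least when single neurons were left out. Atp2b4 encodes a calcium pump found in many tissues (ENSMUSG00000026463, chromosome 1, 133699457 to 133801041, minus strand). It was at 150.6, 42.2, 59.0, 47.5 and 14.1 CPM in type 2, against 15.1, 40.3, 19.7, 23.5 and 12.3 CPM in type 1. Of the type 2 neurons, 4 lay above every type 1 neuron, and 9-4 lay below 4 type 1 neurons. All 10 neurons had 10 CPM or more. Means were 62.7 ± 51.9 CPM in type 2, against 22.2 ± 11.01 CPM in type 1, a difference of 1.20. Pooled reads gave 50.2 CPM (49.1 to 51.3) for type 2 and 21.0 CPM (20.1 to 21.8) for type 1. The difference ranged from 0.79 without 6-2, below 2-fold, to 1.63 without 9-4. The highest and the lowest type 2 neuron, 6-2 and 9-4, were both among the 3 type 2 neurons with the most microglial transcripts. Without 6-2, 9-2 and 9-4 the difference was 1.25, and without 1-2 as well it was 1.49. The part of microglial RNA in it was not tested.

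Atp2b2, the fast calcium pump gene known for its role in cerebellar neurons and hair cells, was uneven within both types (ENSMUSG00000030302, chromosome 6, 113743831 to 114042613, minus strand). It was at 104, 82.9, 113, 8.52 and 44.2 CPM in type 2, against 124, 34.1, 16.3, 150.2 and 1.08 CPM in type 1. The highest and the lowest neuron were both type 1, and 4 of 5 neurons of each type were detected. The difference was 0.84, and means were 70.6 ± 43.7 CPM in type 2, against 65.2 ± 67.5 CPM in type 1. Pooled reads went in the opposite direction, at 69.7 CPM in type 2 (68.4 to 71.0) and 78.8 CPM in type 1 (77.2 to 80.5). Pooling weights neurons by depth, and 8-2, the highest neuron, was also the largest library. Without 9-1 the difference was -0.13, also in the opposite direction.

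Atp2b3, a calcium pump gene of the X chromosome expressed mainly in brain, was detected in 1 neuron (ENSMUSG00000031376, chromosome X, 73503086 to 73571005, plus strand). It was at 0.0820, 0, 2.73, 0 and 48.6 CPM in type 2, against 0, 3.68, 0, 1.55 and 0 CPM in type 1. Its level in 9-4 sets the difference of 0.81, which was -0.21 without that neuron. Counts of 0 in 10-1, 9-2, 1-1, 4-3 and 9-1 allow 0.0721, 0.105, 0.200, 0.306 and 0.0956 CPM by depth alone.

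Per kilobase of exon, Atp2b1 had the largest mean share of the calcium pump family in type 1 and a smaller one in type 2 (28.2 ± 19.2% in type 2, 62.2 ± 23.2% in type 1). Atp2b4 was the other way (28.6 ± 13.97% in type 2, 12.8 ± 11.3% in type 1), and Atp2b2 held 32.5 ± 23.6% in type 2 and 24.4 ± 26.3% in type 1. Atp2b1 led in 6-2 and 9-2 of type 2 and in 1-2, 4-3 and 9-1 of type 1. Atp2b2 led in 10-1 and 10-3 of type 2 and in 1-1 and 8-2 of type 1. Atp2b3 led in 9-4, with 50.5%. The annotated exons of Atp2b1 add up to 15218 bases, against 7130 in its longest transcript, and with the longest transcript as the length Atp2b1 also led in 9-4, 1-1 and 8-2. The family total was 18.4 ± 9.65 CPM per kb in type 2 and 21.6 ± 14.9 CPM per kb in type 1, a log2 difference of -0.01.

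**Figure D3:**
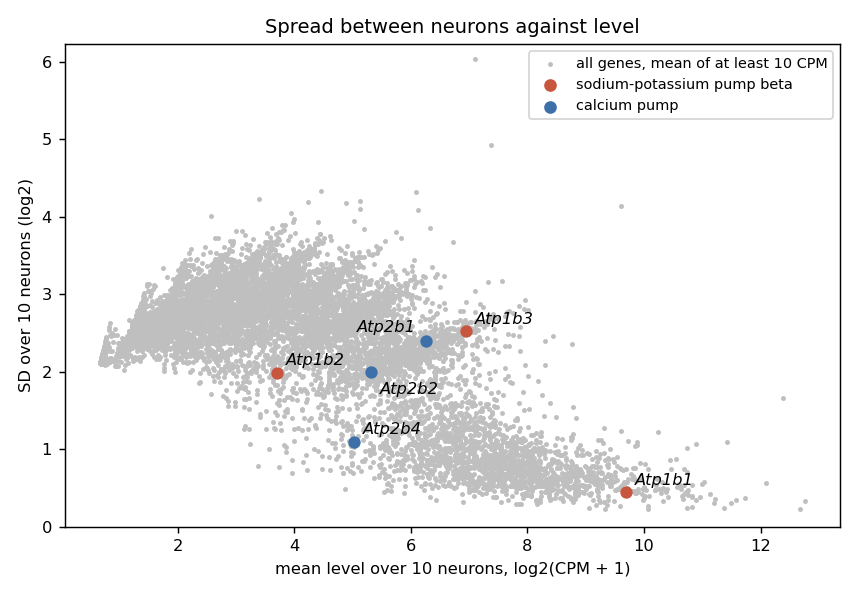
Standard deviation over the 10 neurons against mean level, both in log2(CPM + 1), for the 9212 genes averaging 10 CPM or more (grey) and the 6 pump genes among them (coloured). Atp1b1 lies near the lower edge, at an SD of 0.44, and Atp1b3 and Atp2b1 are at 2.52 and 2.39.

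Ordered by mean CPM per kb over the 10 neurons, the levels were 278 for Atp1b1, 86.2 for Atp1b3, 9.96 for Atp2b1, 5.44 for Atp1b2, 5.39 for Atp2b2, 3.46 for Atp2b4 and 1.17 for Atp2b3. Atp1b1 was above Atp1b3 in 10 of 10 neurons, and Atp1b3 above Atp2b1 in 9. From Atp2b1 down to Atp2b4 each was above the next in only 3 to 5 of 10 neurons, so these neighbours did not differ beyond their spread. With longest transcripts as lengths Atp2b1 was at 21.3 CPM per kb and above the next, Atp2b2, in 8 of 10 neurons. SDs over the 10 neurons in log2(CPM + 1) were 1.10 for Atp2b4, 1.99 for Atp1b2 and Atp2b2, 2.39 for Atp2b1 and 2.52 for Atp1b3, against a median of 2.54 over the 9212 genes.

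Of the 7 genes, 2 were 2-fold or more higher in type 2 (Atp1b3 and Atp2b4) and 1 was 2-fold or more lower (Atp2b1). Of the 11923 genes averaging 1 CPM or more, 31.1% were 2-fold or more higher in type 2 and 21.6% lower, so the counts of pump genes are near this background. Of the 9212 genes averaging 10 CPM or more, the shares were 32.1% and 22.3%. Atp1b3 alone passed 4-fold, as did 21.3% of the 11923. The ranges of the types overlapped for all 7 genes, and of the 11923 genes 2.03% had ranges that did not overlap. The median difference was 0.81 for the 7 genes and 0.24 for all.

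**Figure D4:**
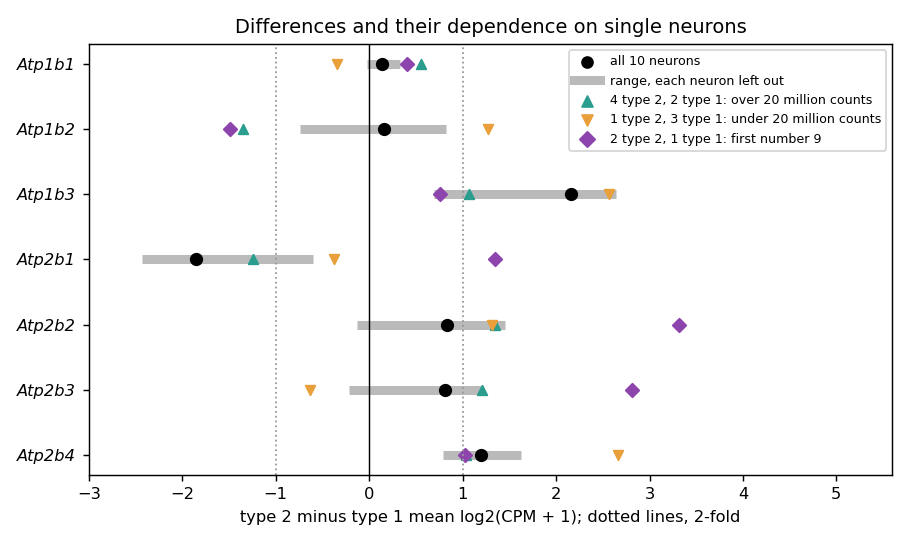
Difference between types (type 2 minus type 1, mean log2(CPM + 1)) for each gene with all 10 neurons (black points), its range when each neuron is left out in turn (grey bars), and its value within subsets of neurons (coloured marks); dotted lines mark 2-fold. The grey bar of Atp2b4 stays between 0.79 and 1.63, while that of Atp1b3 reaches down to 0.70 and that of Atp2b1 up to -0.60.

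Of 17 other genes of the sodium-potassium pump list (alpha subunits, further beta-type subunits, Fxyd regulators and Nkain proteins), 11 had a mean of at least 1 CPM. Of those, 1 was 2-fold or more higher in type 2 and 5 were lower, with a median difference of -0.21. Nkain2, named for an interaction with the pump, was at 2.19 ± 3.26 CPM in type 2, against 41.3 ± 40.7 CPM in type 1 (difference -3.02). Nkain3 had a difference of 1.02, with 22.4 ± 31.1 CPM in type 2, against 31.7 ± 62.6 CPM in type 1, so its sign changed with averaging of CPM. It was between 0.29 and 0.61, below 2-fold, without 9-2, 10-1, 4-3, 8-2 or 9-1. Nkain2 and Nkain3 were detected in at most 3 neurons of a type.

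With all 10 neurons, calcium pump partners did not pass 2-fold. All 5 genes of that list were detected in all 10 neurons, and they had a median difference of 0.22. Nptn, the neuroplastin gene, which shares 344 exon bases with Rec114 on the opposite strand, averaged 248 ± 93.2 CPM in type 2, against 248 ± 230.4 CPM in type 1, and Bsg, the basigin gene, averaged 725 ± 489.8 CPM in type 2, against 575 ± 253 CPM in type 1 (differences 0.66 and 0.22). Calm3, a calmodulin gene, averaged 299.96 ± 117 CPM in type 2, against 384 ± 147 CPM in type 1 (difference -0.34). Without 1-1 the Nptn difference was 1.17, past 2-fold, and without 9-1 it was 0.16. In libraries over 20000000 counts 2 of the 5 genes were 2-fold or more higher in type 2 (32.1% of all genes). Among neurons numbered 9 it was also 2 (45.0% of all genes). Under 20000000 counts 1 was lower (27.0% of all genes).

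Other routes of calcium removal were uneven. Of 9 sodium-calcium exchanger genes 4 had a mean of at least 1 CPM, 3 of them 2-fold or more higher in type 2 and 1 lower (median difference 1.70). Slc24a3, a potassium-dependent exchanger gene, was detected in 5 type 2 and 3 type 1 neurons, at 31.9 to 109 CPM in type 2 and 0 to 100.4 CPM in type 1 (difference 2.65). Slc24a2, its relative, was detected in 4 type 2 and 2 type 1 neurons (58.7 ± 47.1 CPM in type 2, 37.1 ± 51.8 CPM in type 1, difference 2.13). With the ratio of mean CPM in place of mean log2 values, none of the exchanger genes was 2-fold or more higher in type 2. Of 7 organelle calcium pump genes and regulators 4 had a mean of at least 1 CPM, 2 of them 2-fold or more higher in type 2 and 0 lower (median 0.87). These were Atp2a2, the endoplasmic reticulum calcium pump gene (134 ± 98.0 CPM in type 2, 89.4 ± 120 CPM in type 1, difference 1.41), and Atp2c1, a Golgi calcium pump gene that shares exon bases with Aste1 on the opposite strand (172 ± 121 CPM in type 2, 159 ± 124 CPM in type 1, difference 1.05). Atp2c1 was at 0 in type 1 neuron 4-3, and without it the difference was -0.45, in the opposite direction. For Atp2a2 the difference was 0.32 without 1-1, 0.77 without 4-3, 0.89 without 10-1 and 0.96 without 9-4, all below 2-fold. The shares over all genes given above are the background for these counts.

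The genes with patterns most like each member were found among 8811 named genes averaging 10 CPM or more, by the root mean square difference between log2(CPM + 1) values centred on each gene's mean over the 10 neurons. All values of a neuron share its library and depth, and Atp2b3, averaging under 10 CPM, was left out. This choice favours genes that are low in the same neurons as the member, so low levels shared with it are not a separate result. For Atp1b1 these were Trir, Stub1 and Tuba1b (0.25, 0.30 and 0.31), a ubiquitin ligase gene and a tubulin gene among them. For Atp1b3 they were Canx, the calnexin gene, Isca2 and Dcaf12l1 (0.55, 0.57 and 0.58). Isca2 and Dcaf12l1 were also listed at 0 in a type 1 neuron, and the lowest type 1 level of Canx was 0.715 CPM. For Atp1b2 they were Serf1, Mia2 and Calcoco1 (0.92, 0.98 and 1.00). For Atp2b1 they were Exoc6b, an exocyst gene, Etnk1 and Chka (0.70, 0.92 and 0.93), the last pair encoding kinases of phospholipid synthesis. Like Atp2b1, each was nearly absent from a type 2 neuron, at 0.192, 0.745 and 0.385 CPM. For Atp2b2 they were Arih1, Pdcd7 and Slc25a27 (0.67, 0.85 and 0.88). For Atp2b4 they were Ap2s1, an adaptor of endocytosis, Chmp2a and Uqcrh (0.60, 0.62 and 0.63).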

How the data were processed

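Each of 10 libraries held the RNA of 1 neuron. The authors deposited raw counts per gene, whole numbers with no normalization, as the files show. Per the submitters' processing notes, cutadapt 1.13, STAR, HTSeq 0.6.1p1 and DESeq2 were used with mm10; which annotation release and strand option they chose is not given in the sources used here. Symbols were matched for 24942 of 25006 identifiers, and GENCODE M21 coordinates and exon lengths (GRCm38) for 24991. Totals of 9796799 to 41844825 counts mean that 0 counts allow 0.306 to 0.0717 CPM (3 counts). Every one of 45 library pairs differed beyond sampling noise (chi-square per degree of freedom at least 634).

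CPM used library totals, and levels are log2(CPM + 1). With no animal named, each firing type is 1 sample: no p-value was computed. Members, gene lists and alternatives were chosen with earlier results of these data known. Named genes are the members, 5 direct partners, the 2 largest differences of each list at a mean of at least 10 CPM, the 3 genes most like each member, and Gcg and Gal; some of these genes are not reported here. Python 3.11.15, edgeR 4.0.16 and DESeq2 1.42.0 were used, the last pair for scaling only. The calculation of differences was checked on simulated counts with known changes. The simulation did not make genes missing from single neurons, so it checks the arithmetic only. Alternatives were other pseudocounts, TMM and DESeq2 scaling, totals without the most abundant genes, thinning to the smallest library, medians, ratios of mean CPM, subsets by depth, by first number and by microglial transcripts, longest-transcript lengths, other filters and folds for the lists, and each neuron left out.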

Additional observations from a re-analysis of the deposited data

Results flagged for a closer look

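In 2 of 14 groups of 5 neurons (7 genes in 2 types) a single neuron lay far from the other 4 by Dixon's criterion on log2(CPM + 1); chance alone would give this in about 1 of 20 groups. Over all genes averaging 10 CPM or more, 21.1% of 18329 such groups had a neuron this far apart, so the pump genes did not stand out. Atp2b1 in type 2 was at 0.216 CPM in 10-1, and the gap to the next neuron was 0.803 of the group's range. Atp1b3 in type 1 was at 0 CPM in 4-3, with a gap of 0.822 of the range. The 10-1 library is among the deepest and the 4-3 library is the shallowest.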

How the results depend on the processing

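Among the 3 neurons numbered 9 (2 type 2, 1 type 1), Atp2b1 was reversed at 1.35, Atp2b2 was at 3.32, Atp2b3 at 2.82, the calcium pump total at 1.87 and the Atp2b4 share at -9.79 percentage points. Under 20000000 counts, where 6-2 is the only type 2 neuron, Atp1b1 was at -0.34, Atp2b4 at 2.66 and its share at 29.5 points. Among neurons numbered 9, 45.0% of all genes averaging 1 CPM or more were 2-fold or more higher in type 2 and 29.0% lower. Under 20000000 counts these shares were 45.7% and 27.0%, so values past 2-fold were common in both subsets. Leaving out each neuron in turn gave -0.02 to 0.33 for Atp1b1, -0.74 to 0.83 for Atp1b2, 0.70 to 2.64 for Atp1b3, -2.43 to -0.60 for Atp2b1, -0.13 to 1.46 for Atp2b2, -0.21 to 1.20 for Atp2b3 and 0.79 to 1.63 for Atp2b4. Atp1b3 and Atp2b4 kept their sign in 23 of 23 alternatives, and were past 2-fold in 20 and 21. Atp2b1 kept its sign in 22 and was past 2-fold in 20, the reversed value included. The alternatives reuse the same 10 neurons, so these tallies are not independent support. For Atp1b3 the values below 2-fold were 0.70 without 4-3, 0.73 from medians and 0.75 among neurons numbered 9. For Atp2b4 the exceptions were leaving out 6-2 and a pseudocount of 10 CPM (0.97). The 6 partner genes 2-fold or more higher in type 2 and 6 lower became 1 and 3 with a pseudocount of 10 CPM and 2 and 3 at 4-fold. The higher count was 2 by ratio of mean CPM, 3 without 6-2, 9-2 and 9-4, and 3 to 7 with single neurons left out (3 without 4-3, 10-1 or 9-4), while the lower count was 5 to 7; it was 3 in neurons numbered 9 and 3 at a mean of at least 10 CPM. TMM scaling moved the median of all genes by 0.20, and Atp2b2 was then at 1.09. The causes were not tested. No paired analysis was possible because the labels name no animal and the replicate numbers follow accession order. Leaving out 1-2 besides 6-2, 9-2 and 9-4 was chosen after seeing the data. Depth sets a limit of 3 counts on the levels of 0, and Atp2b3 in 6-2 is under that limit. For Atp1b3 in 4-3 the limit is 0.306 CPM, against 82.4 CPM or more in every other neuron. With all libraries thinned to the smallest, the Atp1b3 difference was 2.17.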
